A study of Mus musculus with 6 samples.

Results

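Interferon-stimulated genes are the genes that cells switch on when they sense an interferon. A list of 33 of them, chosen by gene symbol, was followed in RNA sequencing of mouse lens capsules, the basement membrane sacs that carry the lens epithelial cells. All 33 were found among the 56940 genes counted, each under a single Ensembl identifier. The capsules belong to a model of cataract surgery in C57BL/6 wildtype mice, in which the fiber cell mass is removed and the capsule with its epithelium is left in the eye. The 5 day group holds 3 libraries from eyes operated on 5 days before collection. The 0 h group holds 3 libraries from the other eye, operated on just before both capsules were collected, so the 0 h animals had also lived with an operated eye for 5 days. Each library was a pool of 5 capsules, and the labels do not say whether a pool at 5 days and a pool at 0 h share mice.

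Interferons act as alarm signals. Type I interferons (interferon alpha and beta) bind the receptor IFNAR and, through the kinases JAK1 and TYK2, assemble the complex ISGF3, with STAT2 and IRF9 among its subunits, which binds the interferon-stimulated response element (ISRE) of antiviral genes such as the IFIT family, Isg15 and Mx1. Interferon gamma binds another receptor, IFNGR, and through JAK1 and JAK2 leads to factor binding at the gamma-activated site (GAS) of genes such as Irf1, which in turn drives guanylate-binding proteins and antigen presentation. The programs overlap, and many genes answer to both signals. The members were therefore set into 14 type I-type genes, 10 interferon-gamma-type genes and 9 genes common to both, from textbook knowledge of mouse cells. This was done with earlier results of these data known. The classes are working groups and do not show which interferon, if any, was present.

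The libraries held 6207387 to 8682659 gene counts at 5 days and 7709815 to 9774343 at 0 h. All 7 lens epithelium markers examined had counts in every library, with a summed level of 7607 to 22058 CPM at 5 days and 77461 to 94462 CPM at 0 h, where CPM is the count scaled by the normalised library size. Most of that sum was the lens crystallins Cryaa and Cryab, at 6464 to 20448 CPM at 5 days and 75125 to 92113 CPM at 0 h. The other 5 markers summed to 1143 to 1611 CPM at 5 days and 2336 to 2350 CPM at 0 h, 4 of them called lower and Pax6, a transcription factor of the eye, called higher at 0.28 (SE 0.11). Macrophage and monocyte markers summed to 649.2 to 917.5 CPM at 5 days and 39.6 to 67.2 CPM at 0 h, and 18 of the 19 tested were called higher. Neutrophil markers summed to 15.5 to 27.3 CPM at 5 days and 0.119 to 0.328 CPM at 0 h. In bulk tissue, a higher level per cell and a larger share of cells that express a gene cannot be told apart, and this holds for every member below. The part of macrophages and neutrophils in the changes of the members was not tested.

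Most interferon-stimulated genes with enough counts were higher at 5 days. Of the 33 members, 26 passed the low-count filter and were tested, and 17 of these were called higher, 1 was called lower and 8 were not called (edgeR quasi-likelihood test, adjusted p under 0.05). Over all 14676 tested genes 25.1% were called higher and 22.5% lower, 47.6% in either direction. The median log2 fold change of 5 days over 0 h was 1.74 over the tested members and -0.0064 over all tested genes. The classes differed in their counts. Among interferon-gamma-type genes 8 of 9 tested were called higher and none lower, and the median log2 fold change was 2.40. Among type I-type genes 2 of 9 tested were called higher and 1 lower, with a median of 0.30, and among shared genes 7 of 8 were called higher and none lower, with a median of 1.46. These counts describe the lists, and the difference between the classes was not tested. In further lists of targets outside the members, given below, the classes stood closer, with 73.3% of type I-type and 80% of interferon-gamma-type genes called higher.

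The low-count filter itself favours genes that are high at 1 time. Gbp3, Gbp4, Gbp5, Xaf1, Ifitm1 and Bst2 passed it through the 5 day libraries alone, and all 6 were called higher, so they add no support to the counts. Among the 19 members that passed at each time by itself, a split made after the values were seen, 11 were called higher, 1 lower and 7 were not called, with a median log2 fold change of 0.98. Of all 11945 such genes 22.9% were called higher and 23.7% lower. By class, 5 of 6 interferon-gamma-type, 1 of 7 type I-type and 5 of 6 shared members of that kind were called higher, with medians of 1.96, 0.30 and 1.02.

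The 7 members that were too sparse to be tested were Isg15, Rtp4, Mx1, Ifi44 and Rsad2 of the type I-type class, Ifi47 of the interferon-gamma-type class, and the shared gene Isg20. All 7 had a higher mean level at 5 days than at 0 h, between 1.05 and 2.65 CPM at 5 days and between 0.0729 and 0.445 CPM at 0 h. With no low-count filter, where 14.4% of 28203 genes were called higher and 12.3% lower, each of the 7 was called higher, and the type I-type count became 8 of 14. Leaving out a library also relaxes the filter. The type I-type count was then 7 without replicate 1, 4 without replicate 2 and 2 without replicate 3 at 5 days, and 5, 5 and 7 without replicates 1, 2 and 3 at 0 h. The split between the classes in the main test thus concerns only the members that passed the filter, which was not a matter of total counts alone. Gbp4 and Gbp5 passed with 70 and 68 counts over the 5 day libraries, whereas Isg15 and Rtp4, with 67 and 65, did not.

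**Figure D1:**
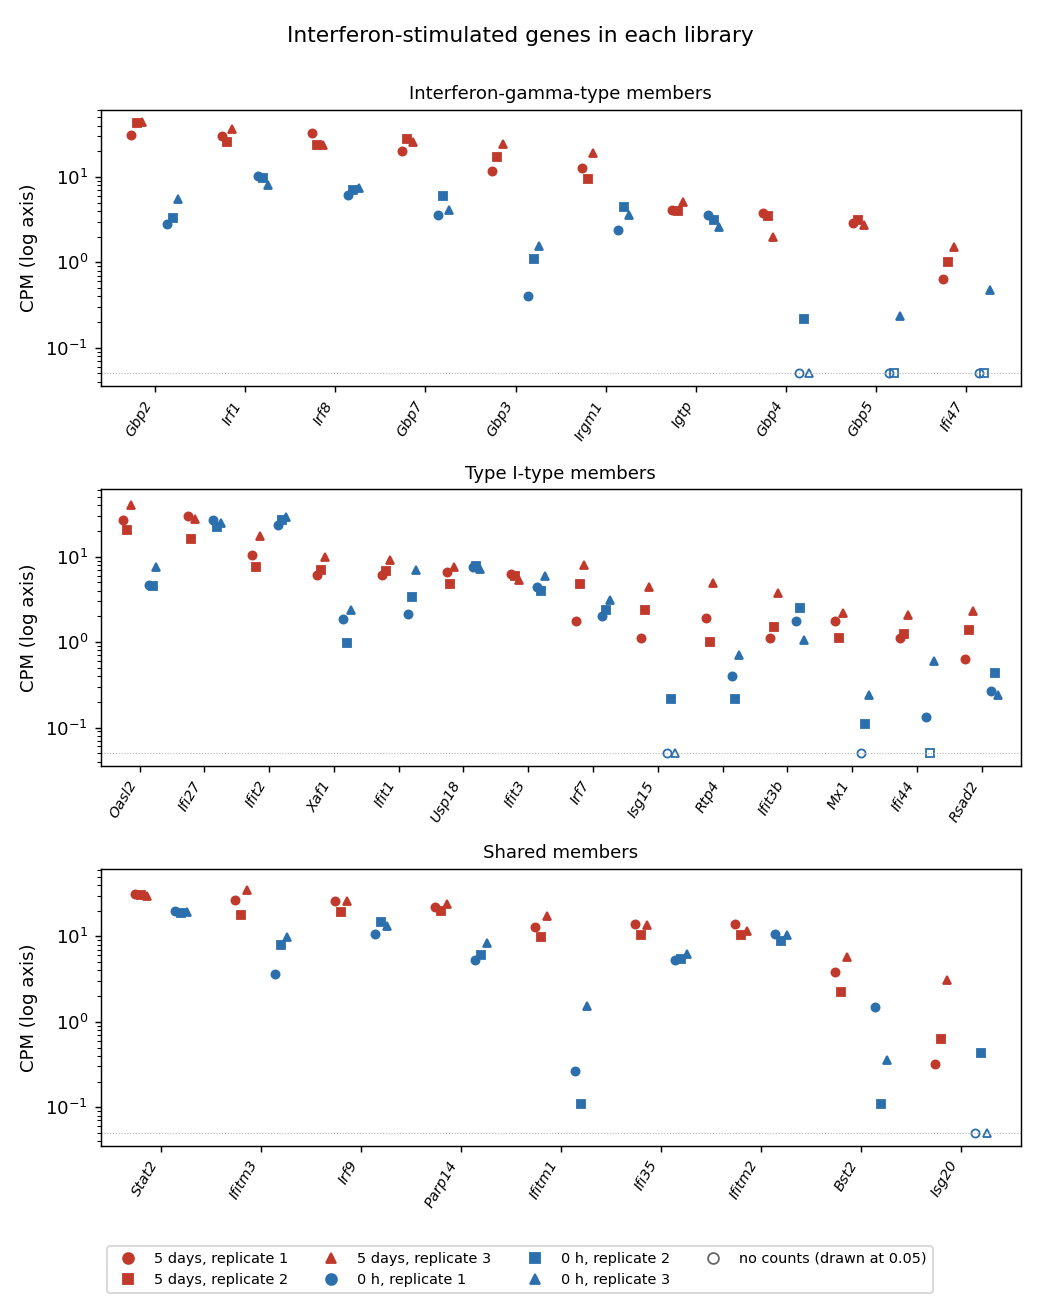
Level of each of the 33 members in each library, in CPM on a log axis, with 5 days (red) left of 0 h (blue), marker shape giving the replicate, and open markers for libraries with no counts. The interferon-gamma-type members stand higher at 5 days in every library, whereas Ifi27, Usp18 and the IFIT genes other than Ifit2 overlap between the times and Ifit2 is lower.

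Of all 33 members, 24 had every 5 day library above every 0 h library and 1 had every 5 day library below. Over all tested genes 29.9% lay fully above and 28.2% fully below. The 24 include Ifi47, Isg15, Rtp4, Mx1, Ifi44 and Rsad2, which were not tested, so the shares are over unlike sets. Also among the 24 are Gbp3, Gbp4, Gbp5, Xaf1, Ifitm1 and Bst2, which passed the low-count filter through the 5 day libraries alone and add no support. All 10 interferon-gamma-type members lay fully above, including Igtp and Ifi47, against 7 of 14 type I-type and 7 of 9 shared members.

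Transcripts of the interferons themselves were all but missing. Of 17 interferon genes, among them interferon beta (Ifnb1), 10 interferon alpha genes and interferon gamma (Ifng), 16 had no count in any of the 6 libraries. The epithelial interferon epsilon (Ifne) had a single count, in replicate 3 at 0 h. No counts over a group allow up to 3 counts, or 0.128 CPM at 5 days and 0.12 CPM at 0 h, counting error only. Lymphoid cells are the usual source of interferon gamma. Their markers (T and NK cells) summed to 1.59 to 3.16 CPM at 5 days and 0.109 to 0.402 CPM at 0 h, and all 14 were too sparse to be tested. No counts were found anywhere for 7 of 14, Cd3d, Cd3e, Cd8a, Ncr1, Gzma, Gzmb and Prf1. The other 7 had counts, 6 of them with a higher mean at 5 days than at 0 h. Every 5 day library lay above every 0 h library for 2 markers and below for 1. The source of any interferon was not tested.

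The receptors were present at both times and higher at 5 days, with 4 of 6 tested and all 4 called, against 25.1% of all tested genes. The type I receptor chain Ifnar1 averaged 69.2 ± 3.41 CPM at 5 days and 46.9 ± 2.87 CPM at 0 h (SD, n = 3 each), a log2 fold change of 0.56 (SE 0.10). Its partner Ifnar2 was scarcer, at 6.79 ± 1.18 CPM at 5 days and 2.45 ± 0.508 CPM at 0 h (SD, n = 3 each), and rose by 1.45 (SE 0.33) on the log2 scale. The interferon gamma receptor chains Ifngr1 and Ifngr2 rose by 0.89 (SE 0.14) and 1.20 (SE 0.13). Ifnlr1 and Il10rb, which form the receptor for interferon lambda, were too sparse to be tested.

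The kinases downstream rose as well. Jak1 rose by 0.93 (SE 0.10), Jak2 by 0.93 (SE 0.13) and Tyk2 by 1.30 (SE 0.18) on the log2 scale. The transcription factor Stat3, which answers mainly to the interleukin 6 family, averaged 189.8 ± 2.69 CPM at 5 days and 104.4 ± 9.94 CPM at 0 h (SD, n = 3 each), and rose by 0.86 (SE 0.10). Among 8 negative regulators 5 were called higher and 1 lower, against 25.1% and 22.5% of all tested genes. Socs1, which blocks JAK signalling from interferon receptors, rose by 2.31 (SE 0.60), and Socs3, a feedback inhibitor of interleukin 6 family receptors, rose by 3.70 (SE 0.14) to 158.4 ± 17.9 CPM at 5 days, against 12.2 ± 2.04 CPM at 0 h (SD, n = 3 each). The STAT inhibitor Pias1 fell by 0.77 (SE 0.11), and Irf2, a repressor at interferon response elements, was not called at -0.21 (SE 0.14).

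Genes that sense foreign or displaced nucleic acids were mostly higher, 11 of 14 tested being called higher and none lower. Over all tested genes these shares were 25.1% and 22.5%. Irf5, a transcription factor of myeloid cells downstream of Toll-like receptors, showed the largest rise, 5.29 (SE 0.38), from few counts at 0 h. The DNA sensing adaptor STING (Tmem173) rose by 3.18 (SE 0.29), the RNA sensors Ifih1 and Ddx58 by 2.06 (SE 0.39) and 0.73 (SE 0.22), and Irf3 by 0.77 (SE 0.13). The RNA sensing adaptor Mavs and the kinase Tbk1 were not called, at -0.37 (SE 0.15) and -0.17 (SE 0.15).

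**Figure D2:**
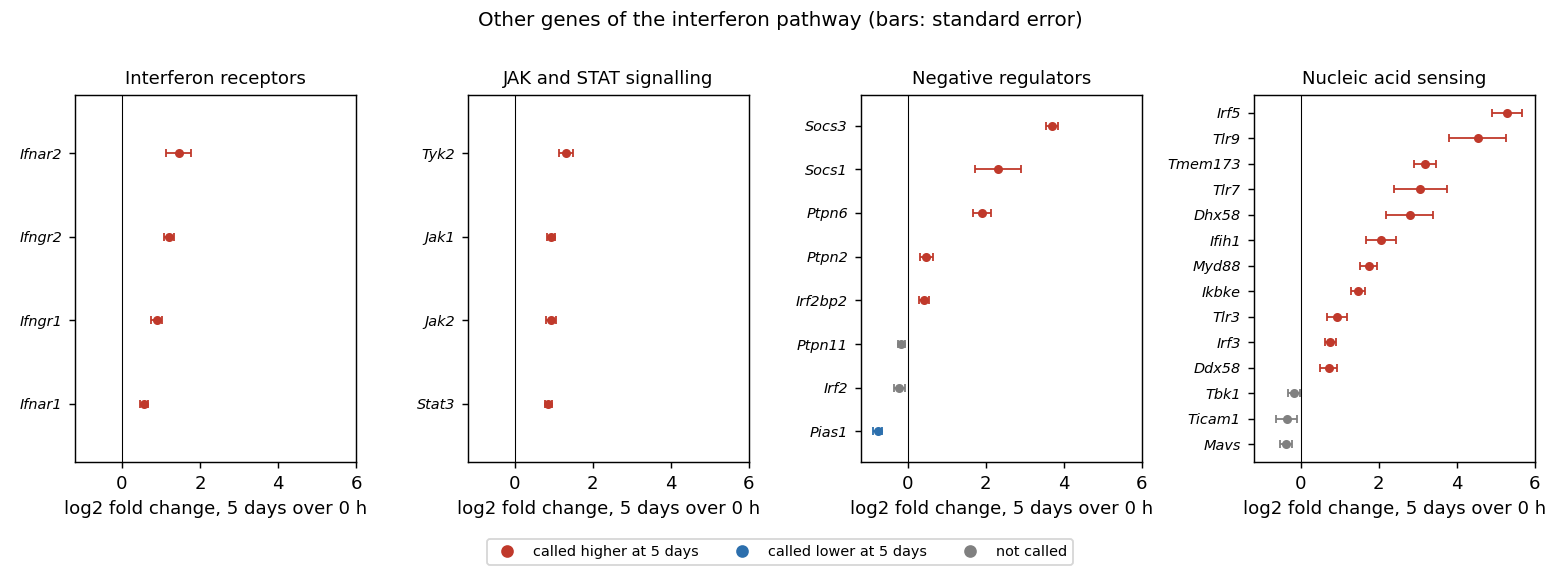
Log2 fold change of 5 days over 0 h with its standard error for tested receptors, JAK and STAT genes, negative regulators and nucleic acid sensors, with called genes in red (higher) or blue (lower). The receptors and kinases sit between 0.56 and 1.45, and Socs3 and Irf5 reach 3.70 and 5.29.

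Among the transcription factors of the list, 4 of 5 were called higher, against 25.1% of all tested genes. Stat2, a subunit of ISGF3, had 31.5, 30.3 and 29.99 CPM in the 5 day libraries, against 19.7, 18.9 and 19.5 CPM in the 0 h libraries. Its spread within a time was small, and the log2 fold change was 0.66 (SE 0.13, adjusted p = 0.00104). The DNA-binding subunit Irf9 had 26.0, 19.5 and 26.3 CPM at 5 days, against 10.7, 14.6 and 13.4 CPM at 0 h, and rose by 0.88 (SE 0.18, adjusted p = 0.00174). The groups did not overlap for either subunit.

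Irf1, the early target of interferon gamma that activates many later genes, had 30.3, 25.4 and 36.6 CPM at 5 days, against 10.3, 9.62 and 8.08 CPM at 0 h. Every library at 5 days was above every library at 0 h, and the rise was 1.72 (SE 0.18, adjusted p = 9.77e-06). Irf8, which directs the development of macrophages and dendritic cells, had 32.5, 23.9 and 23.3 CPM at 5 days, against 6.17, 6.99 and 7.36 CPM at 0 h, a rise of 1.95 (SE 0.19). It was highest in replicate 1 at 5 days, as were 15 of the 19 tested macrophage and monocyte markers. The 10 B cell and dendritic cell markers summed to 30.6 to 42.6 CPM at 5 days and 5.82 to 7.38 CPM at 0 h. Most of the 5 day sum was Itgax alone, at 35.7, 32.4 and 22.03 CPM in replicates 1, 2 and 3. Of the 10 markers, 4 had no counts in any library. Only 3 were tested, with 2 called higher and 1 not called. The sums thus do not show a rise across that list. Irf7, the amplifier of type I interferon production, had 1.74, 4.75 and 8.07 CPM at 5 days, against 2.01, 2.40 and 3.09 CPM at 0 h. Its 5 day libraries spread widely and overlapped 0 h, and it was not called at 0.98 (SE 0.48, adjusted p = 0.118). Without replicate 1 at 5 days Irf7 was called, at 1.35.

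To show which response elements lie at the starts of these genes, the 250 bases before the start of transcription were searched on both strands for the core of the ISRE, GAAA and GAAA parted by any 2 bases, and for TTCNNNGAA, the GAS. RefSeq windows of build GRCm38.p6 were at hand for 27 members, some with several starts, and were not used for Ifi27, Gbp4, Mx1, Usp18, Rtp4 and Parp14. An ISRE core was found in 14 of them and a GAS in 8, with 4 holding both, whereas 2.97% of 32817 windows of all genes held an ISRE core and 7.01% a GAS. Of members called higher 7 of 15 held an ISRE core, and of members tested but not called higher 5 of 7 did. By class the ISRE core was present in 6 of 9 interferon-gamma-type, 5 of 10 type I-type and 3 of 8 shared members, and the GAS in 5, 1 and 2. ISRE matches overlap each other in Isg15, Gbp3, Irgm1 and Bst2, and in Bst2 a GAS match overlaps an ISRE match. A match is a stretch of letters and does not show that a factor was bound.

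The guanylate-binding proteins, GTPases that attack membranes of intracellular microbes, included 5 members. All 5 were called higher, with log2 fold changes of 2.40 to 5.02, against 25.1% called higher over all tested genes. Gbp3, Gbp4 and Gbp5 passed the low-count filter through the 5 day libraries alone, so their calls add no support to the count of 5. Gbp2 had 30.8, 42.5 and 43.7 CPM at 5 days, against 2.82, 3.28 and 5.46 CPM at 0 h, a rise of 3.33 (SE 0.24, adjusted p = 4e-07). Gbp3 had 11.7, 17.3 and 24.1 CPM at 5 days, against 0.402, 1.09 and 1.54 CPM at 0 h, a rise of 4.09 (SE 0.40, adjusted p = 5.02e-06). For both genes the lowest library at 5 days was several times above the highest at 0 h. Gbp7 had 19.97, 27.5 and 25.8 CPM at 5 days, against 3.62, 6.01 and 4.16 CPM at 0 h, a rise of 2.40 (SE 0.23). Gbp4 and Gbp5 had 2 counts each over the 0 h libraries, against 70 and 68 at 5 days, and passed the filter through the 5 day libraries, so they could hardly come out lower. The ratio of 5 days over 0 h was 37.3 for Gbp4 (95% counting interval 9.95 to 314.2) and 36.2 for Gbp5 (95% counting interval 9.66 to 305.4), both intervals covering counting error only. Without replicate 2 at 0 h the Gbp4 log2 fold change was 7.60 in place of 5.02, and without replicate 3 at 0 h that of Gbp5 was 7.54 in place of 4.93, as no 0 h counts were then left. Of the further family members on another list, Gbp8 and Gbp9 were called higher, at 6.33 (SE 0.76) and 2.26 (SE 0.28), Gbp8 with 1 count at 0 h. Gbp6 averaged 0.670 ± 0.857 CPM at 5 days and 0.661 ± 0.544 CPM at 0 h (SD, n = 3 each) and was too sparse to be tested, as were Gbp10 and Gbp11 with 1 count each. Gbp2, Gbp3, Gbp5 and Gbp7 lie on chromosome 3 and Gbp4 and the further family members on chromosome 5, and the genes resemble each other, so that their split of reads is uncertain.

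The windows shown for Gbp2, Gbp7 and Irf1 hold an ISRE core, a GAS or, in Gbp7 only, both, with motif matches in capitals. Gbp2 (chr3:142620413-142620662, plus strand) has an ISRE core 59 bases before the start. Gbp7 (chr3:142530086-142530335, plus strand) has GAS matches 106 and 87 bases before the start and an ISRE core at 53. Irf1 (chr11:53769764-53770013, plus strand) has a GAS 90 bases before its first start.
Gbp2: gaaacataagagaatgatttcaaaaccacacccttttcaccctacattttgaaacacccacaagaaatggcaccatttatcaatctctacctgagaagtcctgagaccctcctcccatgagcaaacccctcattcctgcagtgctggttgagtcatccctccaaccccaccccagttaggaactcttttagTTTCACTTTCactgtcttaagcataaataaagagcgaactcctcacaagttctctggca
Gbp7: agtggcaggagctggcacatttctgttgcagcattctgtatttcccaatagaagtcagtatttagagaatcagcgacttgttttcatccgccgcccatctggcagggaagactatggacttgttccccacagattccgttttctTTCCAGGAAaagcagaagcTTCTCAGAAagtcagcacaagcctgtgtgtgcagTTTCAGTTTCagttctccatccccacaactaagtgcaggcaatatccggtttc
Irf1: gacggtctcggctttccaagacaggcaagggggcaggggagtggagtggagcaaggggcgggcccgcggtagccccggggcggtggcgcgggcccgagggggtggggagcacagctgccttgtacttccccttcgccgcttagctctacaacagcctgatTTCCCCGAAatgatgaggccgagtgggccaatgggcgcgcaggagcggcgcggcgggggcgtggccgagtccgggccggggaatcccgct

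The immunity-related GTPases, which act with the guanylate-binding proteins against vacuolar pathogens, were mixed in size. Irgm1 had 12.8, 9.51 and 18.9 CPM at 5 days, against 2.41, 4.48 and 3.56 CPM at 0 h, and rose by 1.97 (SE 0.32, adjusted p = 0.000293). Igtp, a close relative, had 4.12, 4.003 and 5.13 CPM at 5 days, against 3.62, 3.17 and 2.61 CPM at 0 h. The groups did not overlap, yet the difference was small, at 0.50 (SE 0.33, adjusted p = 0.238), and was not called. The window before Igtp (chr11:58199306-58199555, plus strand) holds a GAS 45 bases and an ISRE core 34 bases before the start, shown because Igtp is the single tested member of its class that was not called.
Igtp: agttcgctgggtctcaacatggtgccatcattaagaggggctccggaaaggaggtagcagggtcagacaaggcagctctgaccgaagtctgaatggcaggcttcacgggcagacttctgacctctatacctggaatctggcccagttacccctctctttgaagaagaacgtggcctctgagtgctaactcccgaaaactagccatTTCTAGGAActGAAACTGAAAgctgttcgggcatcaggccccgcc
Ifi47, the third of these GTPases, had 4, 8 and 14 counts at 5 days, against 0, 0 and 4 counts at 0 h.

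Of the 4 IFIT genes, whose proteins bind viral RNA and block its translation, none was called higher and 1 was called lower. Over all tested genes 25.1% were called higher and 22.5% lower, and 4 genes are too few to set apart from those shares. Ifit2 had 10.5, 7.51 and 17.3 CPM at 5 days, against 23.5, 26.9 and 29.0 CPM at 0 h. It was lower in every library at 5 days, by 1.15 (SE 0.25, adjusted p = 0.00235) on the log2 scale, and was the only member called lower. Ifit1 had 6.18, 6.88 and 9.16 CPM at 5 days, against 2.15, 3.39 and 7.01 CPM at 0 h. The groups overlapped through replicate 3 at 0 h, and Ifit1 was not called at 0.82 (SE 0.39, adjusted p = 0.104). Without that library Ifit1 was called higher, at 1.40, and it was also called with no low-count filter and with a replicate block. Ifit3 had 6.34, 6.00 and 5.34 CPM at 5 days, against 4.43, 3.93 and 5.94 CPM at 0 h (0.30, SE 0.29), and its near copy Ifit3b averaged 2.11 ± 1.40 CPM at 5 days and 1.78 ± 0.723 CPM at 0 h (SD, n = 3 each; 0.27, SE 0.55). The 4 genes are neighbours on chromosome 19, and the split of reads between Ifit3 and Ifit3b is uncertain.

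The windows before IFIT genes and Isg15 hold an ISRE core in 3 of the 4 genes shown, again with matches in capitals. The core is not particular to the type I-type class, where 5 of 10 members held it, against 6 of 9 interferon-gamma-type members. Ifit1 (chr19:34640639-34640888, plus strand) has ISRE cores 104 and 85 bases before the start, and Ifit3 (chr19:34583279-34583528, plus strand) has the same pair of cores at 156 and 122, as Ifit3b has at 188 and 154. Ifit2 (first of 2 starts, chr19:34550444-34550693, plus strand) has no ISRE core in either window and a GAS match 241 bases before the first start. Isg15 (chr4:156200819-156201068, minus strand) has overlapping ISRE cores at 78, 72 and 66.
Ifit1: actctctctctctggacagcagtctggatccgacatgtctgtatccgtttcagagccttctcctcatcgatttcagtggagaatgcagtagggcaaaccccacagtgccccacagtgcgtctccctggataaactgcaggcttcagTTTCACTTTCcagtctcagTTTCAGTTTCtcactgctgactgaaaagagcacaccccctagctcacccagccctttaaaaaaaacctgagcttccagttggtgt
Ifit3: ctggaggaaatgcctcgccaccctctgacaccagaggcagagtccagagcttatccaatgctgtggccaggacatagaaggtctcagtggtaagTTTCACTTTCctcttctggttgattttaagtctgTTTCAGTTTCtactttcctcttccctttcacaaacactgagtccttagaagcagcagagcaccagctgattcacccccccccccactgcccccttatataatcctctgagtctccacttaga
Ifit2: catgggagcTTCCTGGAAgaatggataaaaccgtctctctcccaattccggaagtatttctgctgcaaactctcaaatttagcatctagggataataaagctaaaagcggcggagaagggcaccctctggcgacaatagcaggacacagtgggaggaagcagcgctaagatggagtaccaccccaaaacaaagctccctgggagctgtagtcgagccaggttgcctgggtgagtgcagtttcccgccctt
Isg15: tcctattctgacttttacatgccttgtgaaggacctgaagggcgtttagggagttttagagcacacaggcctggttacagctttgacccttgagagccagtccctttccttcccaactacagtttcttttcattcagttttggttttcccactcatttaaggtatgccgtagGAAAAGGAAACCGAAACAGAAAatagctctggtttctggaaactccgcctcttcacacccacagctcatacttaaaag

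Isg15 encodes a ubiquitin-like modifier that is attached to proteins in interferon-treated cells. It had 7, 19 and 41 counts at 5 days, against 0, 2 and 0 at 0 h, and every library at 5 days was above those at 0 h. The ratio was 35.7 (95% counting interval 9.51 to 301.0, counting error only), and Isg15 was too sparse for the main test. Usp18, which removes ISG15 from proteins and restrains type I interferon signalling at the receptor, had 6.66, 4.75 and 7.63 CPM at 5 days, against 7.51, 7.76 and 7.24 CPM at 0 h. It was not called at -0.24 (SE 0.26, adjusted p = 0.484).

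**Figure D3:**
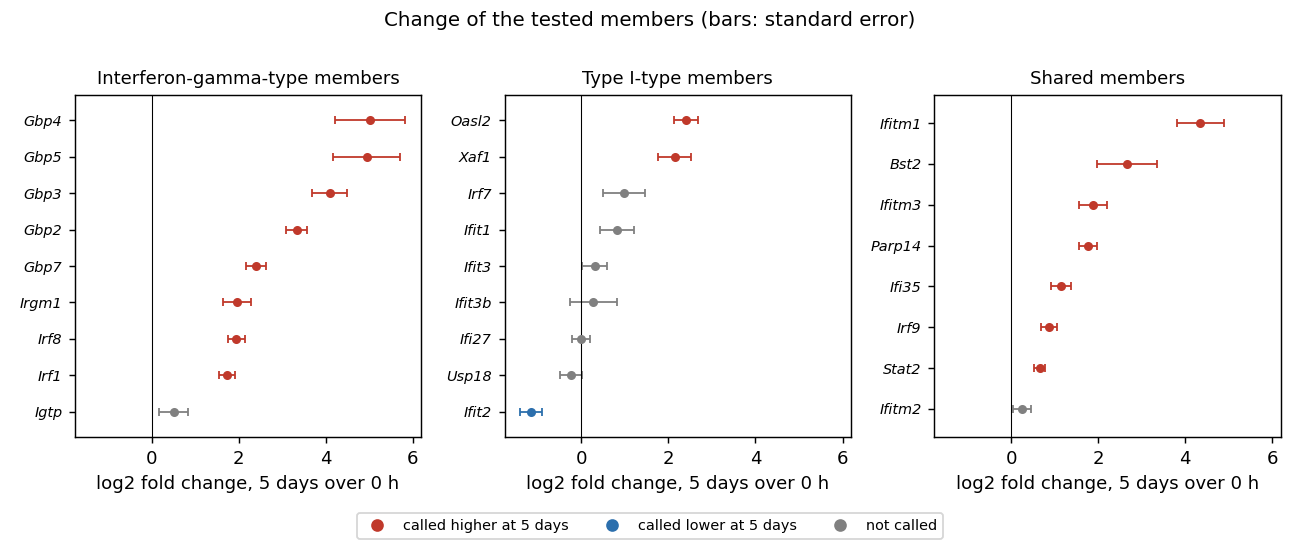
Log2 fold change of 5 days over 0 h with its standard error for the 26 tested members, by class, with called members in red (higher) or blue (lower). All interferon-gamma-type members other than Igtp were called higher, while in the type I-type class Oasl2 and Xaf1 were called higher and Ifit2 lower.

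Of the other antiviral effectors 5 of 6 tested were called higher, against 25.1% of all tested genes. Xaf1 and Bst2 passed the low-count filter through the 5 day libraries alone, so their calls add no support to that count. Oasl2, an oligoadenylate synthetase-like protein, had 27.1, 20.4 and 40.1 CPM at 5 days, against 4.70, 4.48 and 7.48 CPM at 0 h. It had the largest change among tested type I-type members, 2.40 (SE 0.28, adjusted p = 2.11e-05). Xaf1, an interferon-induced promoter of cell death, had 6.18, 7.00 and 9.82 CPM at 5 days, against 1.88, 0.984 and 2.38 CPM at 0 h, a rise of 2.14 (SE 0.38). Parp14, an ADP-ribosyltransferase, rose by 1.76 (SE 0.21) to 22.2 ± 2.10 CPM at 5 days, against 6.52 ± 1.60 CPM at 0 h (SD, n = 3 each). Ifi35 rose by 1.16 (SE 0.23).

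Bst2, known as tetherin because it holds budding viruses at the cell surface, had 3.80, 2.25 and 5.78 CPM at 5 days, against 1.48, 0.109 and 0.356 CPM at 0 h, and rose by 2.66 (SE 0.69, adjusted p = 0.00722). Its size depended on replicate 1 at 0 h, and without that library the Bst2 log2 fold change was 4.02. Ifi27, a small hydrophobic membrane protein often used as a marker of type I interferon in human blood, had 30.1, 16.1 and 27.6 CPM at 5 days, against 27.2, 22.2 and 24.6 CPM at 0 h. The groups overlapped fully and Ifi27 was not called, at -0.0051 (SE 0.21, adjusted p = 0.988).

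Mx1, a dynamin-like GTPase whose allele in C57BL/6 mice carries a deletion that disables the protein, had 11, 9 and 20 counts at 5 days, against 0, 1 and 2 at 0 h, a ratio of 14.2 (95% counting interval 4.53 to 71.8, counting error only). Rsad2, which encodes viperin, an enzyme that makes a chain-terminating nucleotide, had 4, 11 and 21 counts at 5 days, against 2, 4 and 2 at 0 h. Rtp4, a receptor transporter protein, had 12, 8 and 45 counts at 5 days, against 3, 2 and 6 at 0 h. Ifi44 had 7, 10 and 19 counts at 5 days, against 1, 0 and 5 at 0 h. The RNA exonuclease gene Isg20 had 2, 5 and 28 counts at 5 days, against 0, 4 and 0 at 0 h. Replicate 3 at 5 days was the highest library for each of these genes, and its depth was also the largest of its group. In CPM, too, it was the highest for all 7 untested members.

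The IFITM proteins, which hinder viruses from fusing with cell membranes, are encoded side by side on chromosome 7 and changed unequally. Ifitm1 had 12.8, 9.88 and 17.2 CPM at 5 days, against 0.268, 0.109 and 1.54 CPM at 0 h, a rise of 4.35 (SE 0.55, adjusted p = 3.87e-05). Replicate 3 at 0 h carried most of its counts at that time, and without it the Ifitm1 log2 fold change was 6.08. Ifitm3 had 26.5, 18.0 and 35.1 CPM at 5 days, against 3.62, 7.87 and 9.98 CPM at 0 h, a rise of 1.88 (SE 0.32, adjusted p = 0.00042). Ifitm2 had 13.9, 10.3 and 11.5 CPM at 5 days, against 10.7, 8.85 and 10.5 CPM at 0 h. Its groups overlapped, and it was not called at 0.24 (SE 0.21, adjusted p = 0.363). Close similarity among these short genes makes the split of reads uncertain.

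Per exon length, the order of the members changed between the times. The most abundant at 5 days was Ifitm3, at a mean of 39.1 CPM per kb of exon, followed by Ifitm2 at 18.1, Ifi27 at 16.8, Gbp2 at 15.5 and Ifitm1 at 12.2 CPM per kb. At 0 h the order began with Ifi27 at 16.8 CPM per kb, Ifitm2 at 15.3, Ifitm3 at 10.6 and Ifit2 at 6.73 CPM per kb, while Gbp2 stood at 1.53 and Ifitm1 at 0.585 CPM per kb. The 0 h capsules thus already held Ifi27, Ifitm2 and Ifit2 transcripts at levels above most other members.

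**Figure D4:**
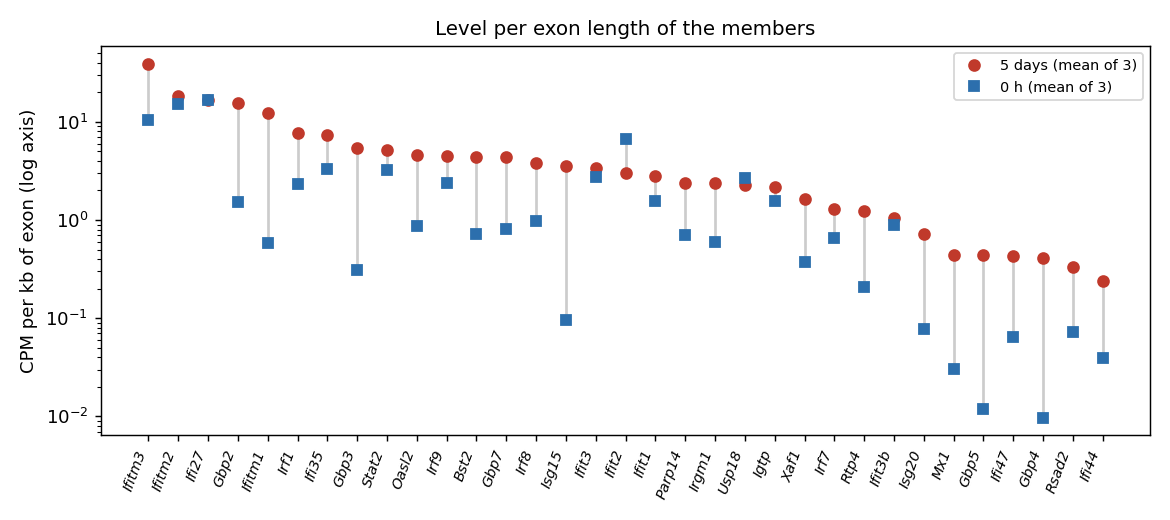
Mean level of each member per kb of exon (log axis) at 5 days (red circles) and 0 h (blue squares), each the mean of 3 libraries with no error drawn, ordered by the level at 5 days. Ifitm3 leads at 5 days with 39.1 CPM per kb, and Ifi27 and Ifitm2 keep nearly the same level at both times.

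Summed over the class, interferon-gamma-type members reached 149.5, 157.7 and 183.9 CPM in the 5 day libraries, against 29.4, 34.9 and 33.5 CPM in the 0 h libraries. The type I-type members summed to 102.4, 82.1 and 144.7 CPM at 5 days, against 75.9, 75.5 and 89.5 CPM at 0 h, so that replicate 2 at 5 days lay within the range of 0 h. The ratio of the first sum to the second was 1.46, 1.92 and 1.27 at 5 days, against 0.387, 0.462 and 0.374 at 0 h. Sums are not corrected for gene length, so that only their change between libraries can be read, and no test was made on them. Of the 26 tested members, 17 had their highest 5 day level in replicate 3, 7 in replicate 1 and 2 in replicate 2. Among macrophage and monocyte markers replicate 1 was the highest for 15 of 19, and replicate 3 for 4. Replicate 3 also had the lowest summed lens epithelium markers at 5 days, 7607 CPM against 17350 and 22058 CPM in replicates 1 and 2 at 5 days. It was the highest at 5 days for 4 of 4 tested endothelial and blood markers and 6 of 7 tested retina and pigment cell markers.

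**Figure D5:**
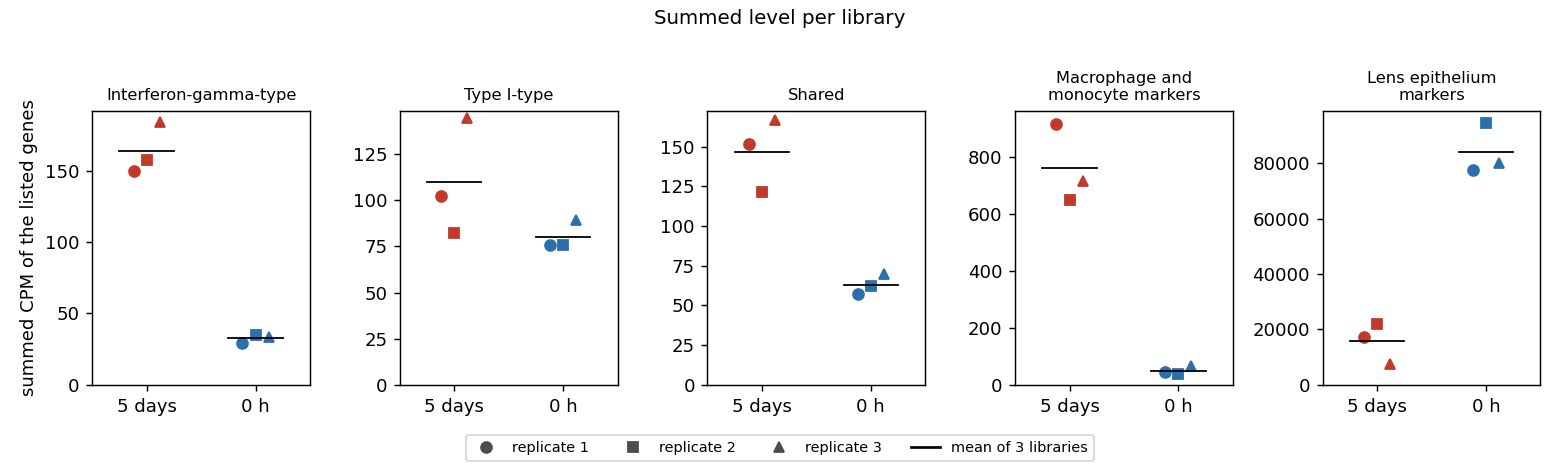
Summed CPM per library of the member classes and of the macrophage and lens epithelium marker lists, with 5 days left of 0 h, marker shape giving the replicate and a line at the mean of 3 libraries (axes differ in scale). Interferon-gamma-type sums separate by time, the type I-type sums overlap, and replicate 3 at 5 days has the highest type I-type sum and the lowest lens epithelium sum.

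Other interferon targets, outside the members, were counted from lists chosen by textbook class, also with earlier results of these data known. Of 35 further type I-type genes, 30 were tested, 22 being called higher and 3 lower, and their median log2 fold change was 1.08. Zbp1, a sensor of left-handed nucleic acids, had no counts at 0 h and was at least 32.0-fold higher (floor of 3 counts in all at 0 h), and Znfx1, the most abundant called gene of the list, rose by 0.47 (SE 0.09). Ifit1bl1, an IFIT relative, showed the largest fall, -2.52 (SE 0.76). Of the tested further type I-type genes 73.3% were thus called higher, against 22.2% of the tested type I-type members and 25.1% of all tested genes. The 2 lists were not compared by a test. Of 30 further interferon-gamma-type genes, 20 were tested, and 16 (80%) were called higher and 1 lower, and the median was 2.08. By share called higher, the 2 classes stood closer in the further lists (73.3% and 80%) than among the members (22.2% and 88.9%). Ciita, the master regulator of class II antigen presentation, had no counts at 0 h and was at least 88.5-fold higher on the same floor, Tapbp rose by 0.41 (SE 0.09), and the proteasome activator Psme1 fell by 0.44 (SE 0.11). The chemokines Cxcl9 and Cxcl11 and the enzyme Ido1, induced by interferon gamma in many cells, had no counts in any library. Genes that had few or no counts at 0 h passed the filter through the 5 day libraries and tilt these counts upward.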

How the data were processed

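RNA was sequenced from 6 pools of mouse lens capsules with a SMARTer stranded total RNA kit for low input, per the labels. Each deposited file holds raw counts per Ensembl gene. HISAT2, HTSeq, edgeR and build GRCm39 are named in the submitters' processing notes, but neither their versions nor the annotation release, strandedness and read-overlap rule were found in the labels. Entries that name no gene, 32.26 to 42.55% of all reads per library, were left out. Depth sets the precision of each value, and sparse genes carry wide errors. Symbols (91.23% of 56940 identifiers), chromosomes and exon lengths came from GENCODE M21 (GRCm38). Promoter windows came from RefSeq (GRCm38.p6).

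Genes were kept by edgeR's default filter (14676 genes), TMM-scaled and compared by edgeR's quasi-likelihood test (edgeR 4.0.16, limma 3.58.1, R 4.3.3), 5 days over 0 h with no block, with Benjamini-Hochberg adjustment over those genes and calls at 0.05. All adjusted p-values in the text are from this test unless another setting is named. SD is over 3 libraries and SE is that of the log2 fold change. p-values measure the spread between pools. A floor is 3 counts over a group, and ratios for 1 to 3 counts have exact 95% intervals. Library pairs of a time differed by more than counting noise.

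All 33 members are named. From each other list the called gene of highest mean level and those of largest rise and fall are named, and other examples were picked with values in view. A signalling gene of the pathway is not reported here. Members, classes and lists were chosen with earlier results of these data known. The alternatives tried were a replicate block, leaving out each library, DESeq2 1.42.0 and its size factors, limma-voom, total library size, TMM without genes for crystallins and mitochondrial or ribosomal RNA, no filter, and a minimum of 2 CPM in 3 or more libraries. Plots used matplotlib 3.10.9 and pandas 2.3.3 under Python 3.11.15.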

Additional observations from a re-analysis of the deposited data

How the results depend on the processing

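The counts of members called higher (17) and lower (1), of interferon-gamma-type members (8) and of shared members (7) called higher stayed within 1.5 times of these values under every alternative. The count of members called higher was 25 of 33 with no low-count filter and 18 with a replicate block. The type I-type count of 2 became 8 with no low-count filter and ranged from 2 to 7 over the leave-one-out fits. Sparse members that were then tested made part of that gain, and the rest came from members tested throughout, Ifit1 (no filter, and without replicate 3 at 0 h) and Irf7 (without replicate 1 at 5 days). The 18 called members kept their call and direction in every setting, and Ifit1 and Irf7 gained a call in 3 and 1 settings. Signs changed for 2 members that were not called. The Ifi27 log2 fold change was 0.00847 with DESeq2 size factors, 0.12 with total library size, 0.00704 with TMM without genes for crystallins and mitochondrial or ribosomal RNA, 0.00938 with DESeq2 and -0.17 to 0.23 with a library left out. The Ifit3b log2 fold change was -0.45 to 0.61 with a library left out. Total library size shifted all log2 fold changes upward by a median of 0.13, and 62.9% of calls over all genes were then higher against 52.7% with TMM. Whether the replicate numbers in the titles pair the pools stayed unknown. Deviations of same-numbered libraries correlated at 0.0421, -0.0896 and 0.0608, and not every library matched its own number best. Such weak correlations from 3 pools per time cannot decide it. Depth limits the 7 untested members, whose 0 h levels rest on 2 to 11 counts.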

Other observations

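Other interferon-related genes outside the members differed widely in size, and these examples were picked with their values in view. The DNA sensor family of Ifi203, Ifi204 and Ifi207, which are close copies with an uncertain split of reads, rose by 4.25 (SE 0.78), 7.46 (SE 0.43) and 4.79 (SE 0.56) on the log2 scale. Ifi204 averaged 30.7 ± 8.39 CPM at 5 days and 0.162 ± 0.143 CPM at 0 h (SD, n = 3 each). Epsti1 had 158 counts at 5 days and 1 count at 0 h. The partners Dtx3l and Parp9, which form an ADP-ribosylating ubiquitin ligase complex, rose by 1.41 (SE 0.17) and 1.80 (SE 0.22). Against this direction, the RNA helicase Ddx60 fell by 0.75 (SE 0.26), to 9.43 ± 3.94 CPM at 5 days, against 16.1 ± 2.16 CPM at 0 h (SD, n = 3 each), and Trafd1, a negative regulator of innate signalling, fell by 0.67 (SE 0.15). Cmpk2 and Herc6, both classical type I interferon targets, were not called, at 0.14 (SE 0.48) and 0.50 (SE 0.34). The immunoproteasome gene Psmb8 rose by 3.53 (SE 0.37), while Psme2 and Wars, also induced by interferon gamma, were not called at 0.38 (SE 0.16) and 0.16 (SE 0.13).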
